A study of Mus musculus with 12 samples.

Results

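Glycolysis, glucose and lactate transport, glycogen use and the hypoxia response were followed through 40 genes in mouse heart tissue. The genes are known enzymes, carriers and regulators of these pathways and were listed by name. All 40 were among the 33615 gene symbols in the deposited table, and all 40 passed the filter on low counts that left 15952 genes for testing. The tissue was frozen heart, profiled by bulk RNA sequencing in 12 libraries, with 4 libraries in each of 3 groups. Sham hearts had the operation without ischemia. Hearts of the I/R group were made ischemic for 30 min and then reperfused for 2 h. I/R + ML264 hearts had the same injury, and the mice received ML264, a small molecule given as an inhibitor of the transcription factor KLF5. All 3 groups were operated mice, and the labels give no genotype, strain, age, sex, dose of ML264 or time of dosing. They do not say whether each library came from a separate mouse, so a p-value here reflects only how these libraries vary, which may be technical.

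The healthy adult heart burns mainly fatty acids and lactate, and glycolysis supplies a small share of its ATP. When blood flow stops, oxygen falls, and the muscle turns to glycogen breakdown and glycolysis, with lactate as the end product, until reperfusion brings oxygen back. Hypoxia-inducible factors (HIFs) are transcription factors whose alpha subunits are hydroxylated and degraded while oxygen is present. In low oxygen they persist, pair with ARNT and bind DNA elements with the core letters ACGTG or GCGTG, where they raise many glycolytic genes.

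Library totals were 22.26 to 29.93 M estimated counts. So 3 counts, the limit that a count of 0 allows, stood for 0.1002 to 0.1348 CPM (counts relative to the library total). These limits are not scaled, whereas the CPM values of genes here are scaled by the TMM factors (0.8928 to 1.102). Such limits cover counting error only. The 40 genes together made up 0.311% to 0.386% of each library. Markers of heart muscle were high in every library (6 of 6 measured, summed level 19592 to 25042 CPM). The 6 skeletal muscle markers summed to 0.226 to 0.936 CPM. Of these, Myh1, Myh2 and Myh4 stayed under 0.2 CPM in all 12 libraries, and Tnnt3, Actn3 and Mylpf reached 0.516, 0.584 and 0.22 CPM. Libraries also differed in ways that the groups do not give. The mean log2 CPM of 4 Y-linked transcripts was 5.19 to 5.27 in 8 libraries, all 4 of Sham among them. It was 0.54 to 1.34 in the remaining 4, namely libraries 1 and 4 of I/R and libraries 1 and 2 of the ML264 group. Arntl, a core clock gene, stood at a log2 CPM of 3.39 in Sham library 2, 3.94 in Sham library 3 and 3.49 in library 1 of I/R, where the remaining 9 had 0.17 to 1.74. Of markers of other heart cells, 1 of 4 endothelial, 1 of 4 smooth muscle and 1 of 4 macrophage markers fell in I/R against Sham and 1 of 4 macrophage markers rose. Among heart muscle markers 1 of 6 rose, no fibroblast marker was called (0 of 4), and neither was any marker of these lists in the comparisons with ML264.

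The transcript entries of a gene did not line up between libraries in the deposited table. Among 521 genes with 2 transcripts and at least 200 counts in each library, the same transcript was the more abundant in 45.9% to 54.7% of genes for a pair of replicate libraries, against 50% if the order of entries were random. Among 501 genes with 5 transcripts it was 17.0% to 22.8%, against 20%. Gapdh, with 13 transcripts, had 8 different top transcripts in 12 libraries. Sums over a gene do not depend on this order, so every value here is a sum per gene, and isoforms, such as the muscle and ubiquitous forms of Pkm, were not analysed.

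Per length of transcript, the most abundant of the 40 were enzymes of lower glycolysis (here all steps from aldolase on) and of pyruvate oxidation and reduction. Gapdh, the glyceraldehyde phosphate dehydrogenase, led with a mean over 12 libraries of 280 CPM per kilobase, and its lowest library (215) lay above the highest of any other member (145, Pdha1). Pdha1, the catalytic subunit of pyruvate dehydrogenase, followed at 129, aldolase A (Aldoa) at 102, the muscle phosphoglycerate mutase Pgam2 at 82.2 and the heart lactate dehydrogenase Ldhb at 81.4 CPM per kilobase, and the ranges of neighbours in this order overlapped. Muscle isoenzymes stood above their ubiquitous counterparts. Eno3, the muscle enolase, was at 69.5 against 5.64 CPM per kilobase for Eno1, Pfkm at 66.9 against 4.44 for the liver form Pfkl and 7.90 for the platelet form Pfkp, and the insulin-regulated glucose carrier Slc2a4 (GLUT4) at 22.4 against 1.55 for Slc2a1 (GLUT1). Hk2, the muscle hexokinase, was at 23.5 against 9.12 for Hk1. The lowest members were Ankrd37 at 0.466 and Slc16a3, the lactate exporter MCT4, at 0.451 CPM per kilobase.

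**Figure D1:**
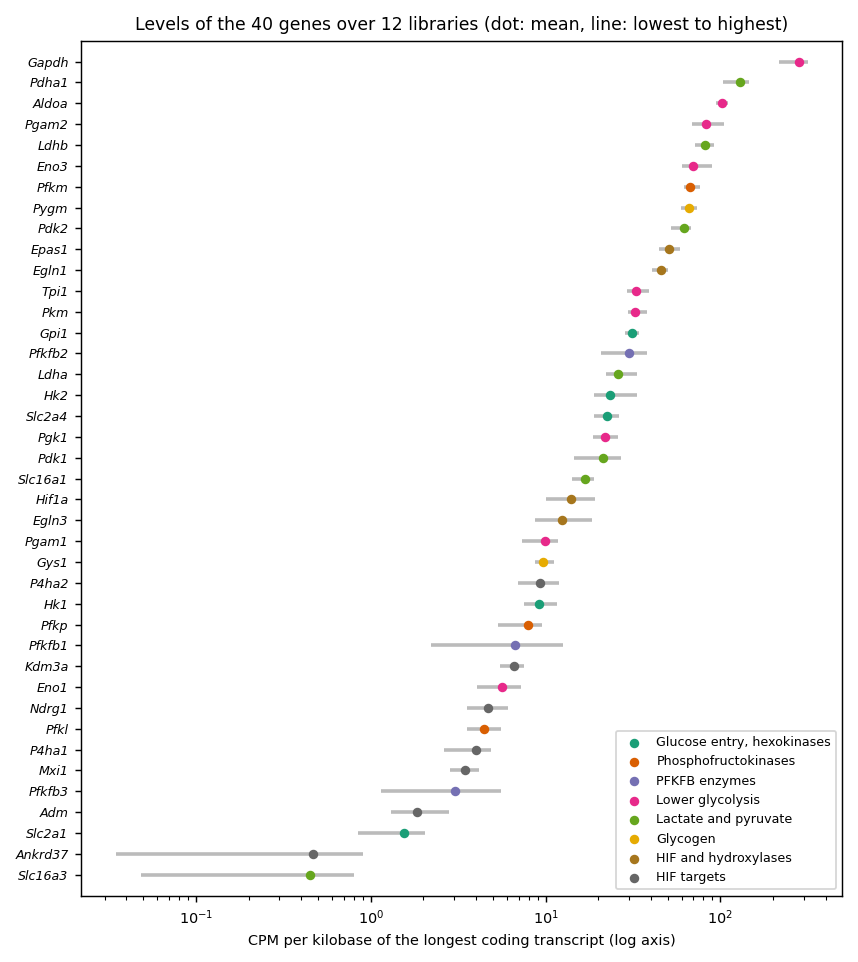
Mean level of each of the 40 genes over 12 libraries, in CPM per kilobase of the longest coding transcript on a log axis, coloured by role, with a line from the lowest to the highest library. Gapdh stands apart at the top, and Slc16a3 and Ankrd37 lie at the bottom with the widest lines.

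The first question was what ischemia and early reperfusion changed, in I/R against Sham. Of the 40 genes, 4 rose and 1 fell in I/R. The rises were in the hexokinase gene Hk2, in Pfkfb3, in the lactate carrier gene Slc16a3 and in the stress gene Ndrg1. The fall was in Gapdh. That is 12.5% of the 40, against 7.87% of all genes tested (1256 of 15952, 744 higher and 512 lower, or 620 higher and 676 lower with upper-quartile factors). Higher calls were 4 of 40 (10.0%, background 4.66%) and lower calls 1 of 40 (2.5%, background 3.21%). Genes are called changed here at an adjusted p under 0.05 in edgeR's quasi-likelihood test with Benjamini-Hochberg adjustment over all genes tested. The 40 genes had a median log2 fold change of 0.007 (all genes tested 0.002). Of them, 29 of 40 lay within 0.2 of 0 on the log2 scale, against 46.6% of all genes tested. Within groups the 40 had a median coefficient of variation of 10.6%, against 17.3% for all genes tested. It was 9.9% for tested genes with a mean of 10 CPM or more, so the 40 did not vary less than abundant genes. At an unadjusted p under 0.05 there were 11 of 40 (27.5%, background 23.2%). CPM values did not overlap between I/R and Sham for 7 of the 40 (17.5%, background 15.8%), 4 higher in I/R (10.0%, background 8.54%) and 3 lower (7.5%, background 7.25%). These were the 5 called genes, Eno1 and Ankrd37. In whole tissue, fewer cells of a type and less RNA per cell cannot be told apart.

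**Figure D2:**
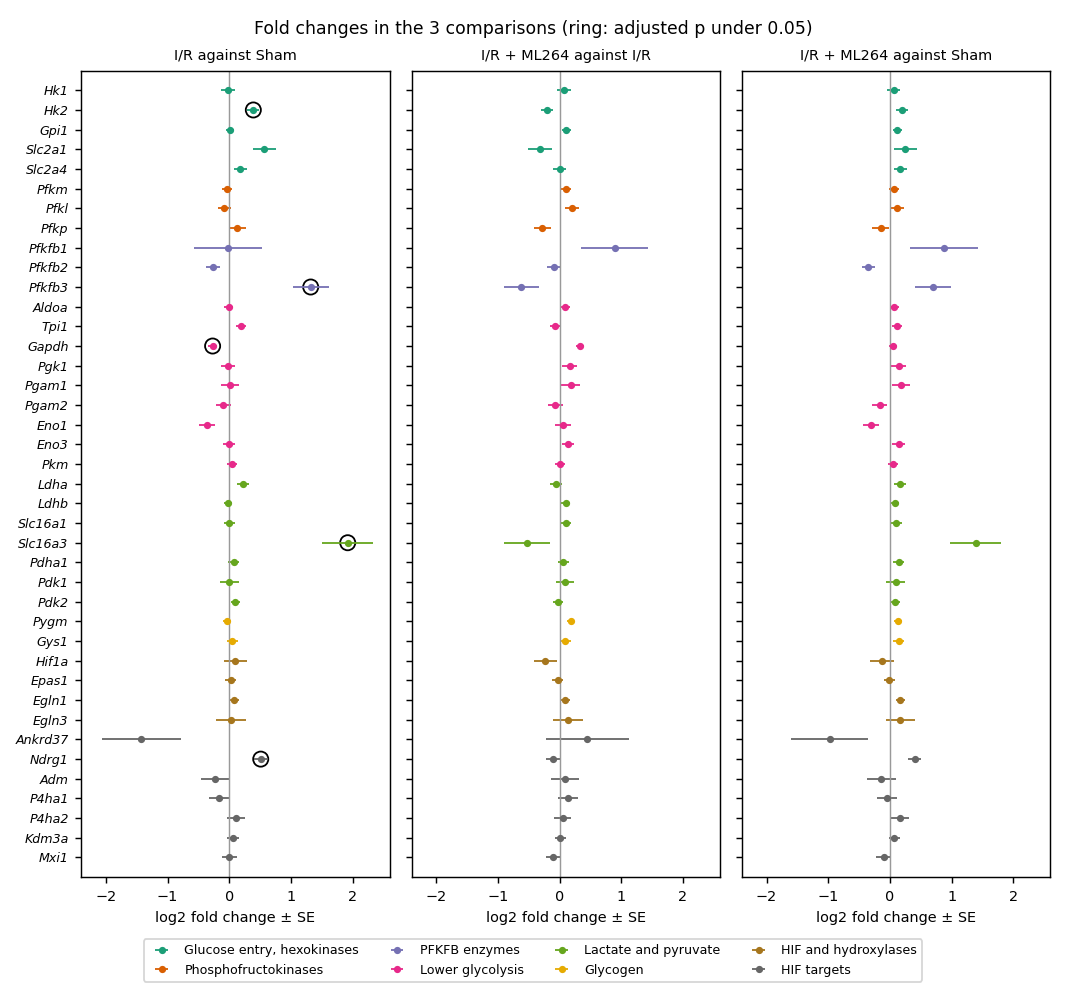
Log2 fold change with its standard error for each of the 40 genes in the 3 comparisons, coloured by role, with a ring around genes with an adjusted p under 0.05. Rings appear only in I/R against Sham, on Hk2, Pfkfb3, Gapdh, Slc16a3 and Ndrg1, and most points lie near 0.

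Glucose enters heart muscle through GLUT4 and GLUT1 and is trapped by hexokinase. Hk2 stood at 104, 126, 108 and 112 CPM in Sham libraries 1 to 4 and at 139, 130, 139 and 183 in I/R libraries 1 to 4, so every I/R library was above every Sham library, with I/R library 4 well above the rest. Its log2 fold change was 0.39 ± 0.10 (SE, adjusted p = 0.0214), from 113 ± 9.56 to 148 ± 24.0 CPM (SD, n = 4). Hk1, the hexokinase of most tissues, was at 38.7 ± 1.66 and 38.2 ± 4.04 CPM (log2 fold change -0.02 ± 0.11), and the ratio of Hk2 to Hk1 within a library was 2.76 to 3.10 in Sham and 3.29 to 4.50 in I/R. That ratio and those below were chosen after the values were seen and carry no test. Slc2a1 was at 3.94, 5.90, 2.74 and 3.98 CPM in Sham and 5.71, 6.17, 6.03 and 6.66 in I/R. The level of Sham library 2 fell inside that of I/R, and the difference was not called (0.57 ± 0.19, adjusted p = 0.0819). Without Sham library 2 it was called (0.79, adjusted p = 0.0235). Slc2a4 (0.18 ± 0.10) and the isomerase Gpi1 (0.01 ± 0.07) were not called.

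Phosphofructokinase is the committing step of glycolysis, and none of its 3 subunit genes was called (log2 fold change -0.08 to 0.13, smallest adjusted p = 0.647). Pfkm, the abundant one, was at 191 ± 15.2 CPM in Sham and 187 ± 11.2 in I/R (SD, n = 4). The PFKFB enzymes make and remove the sugar bisphosphate that activates phosphofructokinase, and Pfkfb3 encodes the inducible form, in which synthesis prevails. Pfkfb3 was at 11.1, 7.03, 5.49 and 10.5 CPM in Sham and 18.6, 18.6, 21.2 and 26.6 in I/R. The 4 I/R libraries all lay above the 4 Sham libraries, a 2.5-fold rise (log2 fold change 1.32 ± 0.29, SE, adjusted p = 0.0198). Pfkfb2, the heart form, was the more abundant (29.9 against 3.03 CPM per kilobase), at 152 ± 12.6 CPM in Sham and 127 ± 15.9 in I/R, and was not called (-0.26 ± 0.11, adjusted p = 0.167). The ratio of Pfkfb3 to Pfkfb2 was 0.0396 to 0.0683 in Sham and 0.126 to 0.244 in I/R. Pfkfb1 varied widely, from 4.16 to 23.3 CPM over the 12 libraries, with no call (-0.02 ± 0.55).

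In lower glycolysis, taken here from aldolase on, 1 of 9 genes was called, Gapdh, and it was lower in I/R. Gapdh was at 388, 413, 436 and 426 CPM in Sham and 305, 368, 342 and 361 in I/R, and I/R library 1 was the lowest of all. The log2 fold change was -0.27 ± 0.07 (SE, adjusted p = 0.0272), from 416 ± 20.6 to 344 ± 28.3 CPM (SD, n = 4). Gapdh shares 28.1% of its 31-base words with transcripts of other genes, so its counts are uncertain. The 49 genes that hold at least 10% of its words had 3.79% of the joint counts, and the call was the same when they were added to Gapdh. Eno1, the ubiquitous enolase, was at 11.7, 14.6, 13.5 and 13.2 CPM in Sham and 10.3, 11.6, 9.25 and 10.2 in I/R. The groups did not overlap, yet the difference was not called (-0.36 ± 0.13, adjusted p = 0.106), and Eno1 is uncertain with 28.5% of its words shared. Eno3 was at 105 ± 11 and 105 ± 7.98 CPM. Over the 8 uncalled genes of these steps (Aldoa, Tpi1, Pgk1, Pgam1, Pgam2, Eno1, Eno3 and Pkm) the log2 fold change was -0.36 to 0.19. Pgk1, Pgam1 and Pkm share 54.7%, 37.1% and 34.7% of their words and are uncertain.

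Lactate and pyruvate genes had 1 call in 7, Slc16a3. MCT4, its product, is a low-affinity carrier known for lactate export from glycolytic cells. Slc16a3 was at 0.950, 0.942, 1.08 and 0.211 CPM in Sham and 2.56, 3.26, 2.69 and 3.48 in I/R, so every I/R library was above every Sham library, and Sham library 4 was far below the other 3. These are low levels, with 84 counts summed over the Sham libraries and 313 over the I/R libraries. The rise was 3.78-fold (log2 fold change 1.92 ± 0.41, SE, adjusted p = 0.0115), and without Sham library 4 the log2 fold change was 1.59 (adjusted p = 0.0219). Slc16a1 (MCT1), the carrier of most heart lactate traffic, was at 72.2 ± 4.57 CPM in Sham and 72.2 ± 7.24 in I/R (SD, n = 4), with a log2 fold change of 0.00 ± 0.09. Lactate dehydrogenase Ldha was higher without a call (0.22 ± 0.10, adjusted p = 0.179), and Ldhb was at -0.02 ± 0.07, uncertain with 33.0% of its words shared. Pdha1 (0.07 ± 0.09) and its kinases Pdk1 (0.00 ± 0.15) and Pdk2 (0.10 ± 0.08) were not called.

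Neither glycogen gene was called. Pygm, the muscle glycogen phosphorylase, was at 185 ± 2.83 and 179 ± 7.61 CPM, and Gys1, the muscle glycogen synthase, at 34.0 ± 2.12 and 35.1 ± 2.48 (SD, n = 4). None of the 4 genes for HIF alpha subunits and their hydroxylases was called (log2 fold change 0.02 to 0.10, smallest adjusted p = 0.574). Epas1, which encodes HIF-2 alpha and was the most abundant, was at 279 ± 15.6 and 283 ± 24.7 CPM. Hif1a was at 66.0 ± 19.0 and 70.7 ± 12.3, and the prolyl hydroxylases Egln1 and Egln3 were at 155 ± 10.5 and 163 ± 10.7, and 31.4 ± 8.30 and 32.0 ± 7.29 CPM. HIF is regulated mainly through protein stability, which RNA levels do not measure.

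Of 7 HIF targets, 1 rose. Ndrg1, a stress-induced gene raised by hypoxia in many cells, was at 10.8, 10.9, 10.3 and 11.3 CPM in Sham and 15.1, 14.9, 14.3 and 17.6 in I/R. Sham libraries were close to each other, and every I/R library lay above them (log2 fold change 0.51 ± 0.11, SE, adjusted p = 0.0104). Ankrd37 was at 0.769, 0.833, 0.625 and 0.528 CPM in Sham and 0.220, 0.236, 0.523 and 0.0374 in I/R, or 73 and 26 counts summed over the 4 libraries. The groups did not overlap, I/R library 4 was below the 3-count limit, and the difference was not called (-1.43 ± 0.64, adjusted p = 0.188). Ankrd37 is uncertain too, since Lrp2bp, which holds 19.0% of its words, had 79.6% of their joint counts. Kdm3a, a histone demethylase and the target with the highest CPM not scaled by length, was at 31.1 ± 1.07 and 32.4 ± 4.25 CPM (SD, n = 4). Adm, P4ha1, P4ha2 and Mxi1 had log2 fold changes of -0.23 to 0.11, with no call.

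**Figure D3:**
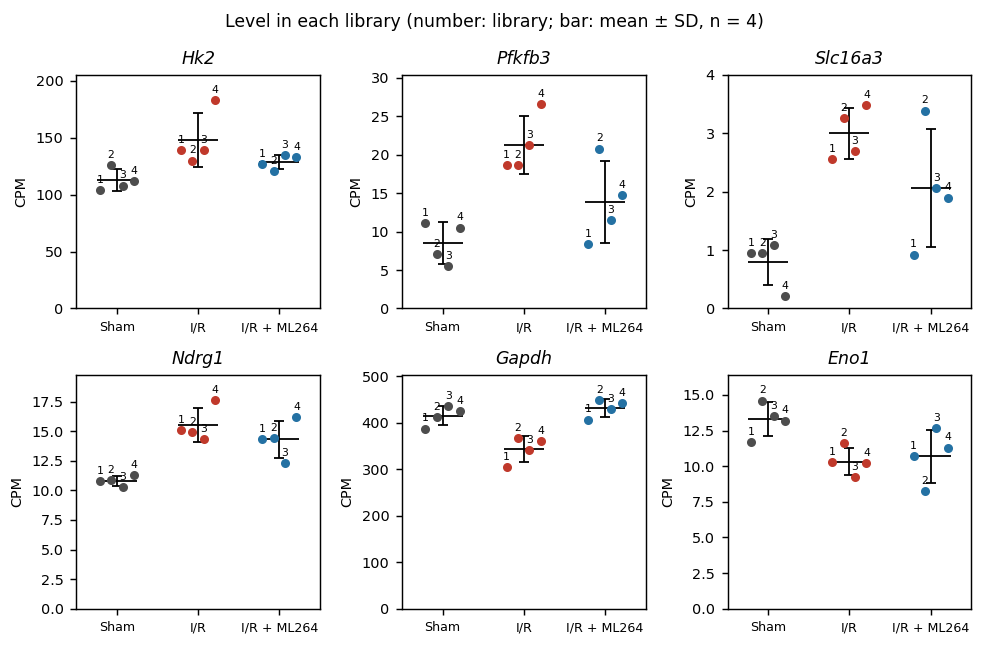
CPM in each of the 12 libraries for the 5 called genes and for Eno1, with the library number beside each point and bars for the mean and SD of 4 libraries. I/R does not overlap Sham in any of the 6 panels, and the I/R + ML264 libraries of Pfkfb3 and Slc16a3 spread from the Sham range to the I/R range.

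The rises differed in how far they rested on particular libraries. Slc16a3 and Ndrg1 were called in all 12 fits that left out 1 library. Hk2 was not called on leaving out Sham library 1, 3 or 4 (0.36 to 0.39, adjusted p = 0.0569 to 0.0621) or I/R library 4 (0.27, adjusted p = 0.0631), Pfkfb3 was not called without Sham library 2 (adjusted p = 0.0600) or I/R library 4 (0.0556), and Gapdh was not called without Sham library 2, 3 or 4 or I/R library 1 or 3 (0.0514 to 0.0762). I/R library 4 had the highest level in its group of Hk2, Pfkfb3, Slc16a3, Ndrg1 and Slc2a1. It also had the highest sum of 4 platelet markers in that group (3.82 to 138 CPM in I/R, 2.08 to 14.9 in Sham) and of 5 neutrophil markers (6.92 to 15.9 CPM in I/R, 4.65 to 7.16 in Sham), and no tested marker on these lists was called (0 of 4 and 0 of 3). Of the neutrophil markers, S100a8 was at 0 in all Sham libraries and at 0.118 to 0.524 CPM in I/R. Cxcr2 was at 3.77 to 5.40 CPM in Sham and 4.21 to 9.06 in I/R. The part of these cells in the rises of Pfkfb3 and Slc16a3 was not tested.

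With the level of Y-linked transcripts as a covariate, 1 of the 5 calls was kept, Slc16a3 (1.92, adjusted p = 0.0434). Hk2 then had an adjusted p of 0.0970, Pfkfb3 0.0763, Gapdh 0.111 and Ndrg1 0.0521, at log2 fold changes of 0.35, 1.26, -0.24 and 0.47. In the 8 libraries high in Y-linked transcripts, a choice made after the data were seen, Pfkfb3 (1.23, adjusted p = 0.0291) and Slc16a3 (1.91, adjusted p = 0.0256) were called. With Arntl as a covariate, Hk2 (0.35, adjusted p = 0.0899) and Pfkfb3 (1.1, adjusted p = 0.0549) were not called, at log2 fold changes of the same direction.

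Promoter sequence is where transcription factors such as HIF bind, so the windows on hand for the called genes (Hk2, Pfkfb3, Slc16a3 and Gapdh) are shown here. Hk2 lies on chromosome 6 at 82725025 to 82774454 (minus strand), Pfkfb3 on chromosome 2 at 11471433 to 11554077 (minus), Slc16a3 on chromosome 11 at 120948480 to 120960868 (plus), Ndrg1 on chromosome 15 at 66929318 to 66969640 (minus) and Gapdh on chromosome 6 at 125161715 to 125166467 (minus), all protein coding (GRCm38, GENCODE M21). Each window is the 250 bases before an annotated transcript start, from RefSeq (GRCm38.p6), read 5′ to 3′ on the strand of the gene. Capitals mark ACGTG, a form of the HIF core, or, on the other strand, CACGT. The other form, GCGTG, was not searched or marked, so every match below is of ACGTG only. The same letters also lie inside the E-box CACGTG, bound by other factors, where they match on both strands.
Hk2, chr6:82774455-82774704, minus strand: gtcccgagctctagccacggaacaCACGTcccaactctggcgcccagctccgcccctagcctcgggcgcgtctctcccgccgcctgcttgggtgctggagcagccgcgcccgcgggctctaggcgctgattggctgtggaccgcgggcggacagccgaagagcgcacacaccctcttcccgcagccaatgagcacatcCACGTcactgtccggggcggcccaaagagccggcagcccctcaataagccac
Pfkfb3, upstream start, chr2:11553930-11554179, minus strand: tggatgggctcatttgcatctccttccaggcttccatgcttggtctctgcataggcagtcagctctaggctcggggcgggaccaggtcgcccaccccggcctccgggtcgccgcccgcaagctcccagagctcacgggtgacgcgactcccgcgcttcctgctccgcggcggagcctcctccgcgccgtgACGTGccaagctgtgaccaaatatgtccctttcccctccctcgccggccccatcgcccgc
Pfkfb3, downstream start, chr2:11502091-11502340, minus strand: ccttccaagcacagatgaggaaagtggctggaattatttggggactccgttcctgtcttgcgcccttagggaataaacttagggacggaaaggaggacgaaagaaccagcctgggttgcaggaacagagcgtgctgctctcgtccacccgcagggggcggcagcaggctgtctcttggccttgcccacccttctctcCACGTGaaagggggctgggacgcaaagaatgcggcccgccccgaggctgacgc
Slc16a3, chr11:120948817-120949066, plus strand: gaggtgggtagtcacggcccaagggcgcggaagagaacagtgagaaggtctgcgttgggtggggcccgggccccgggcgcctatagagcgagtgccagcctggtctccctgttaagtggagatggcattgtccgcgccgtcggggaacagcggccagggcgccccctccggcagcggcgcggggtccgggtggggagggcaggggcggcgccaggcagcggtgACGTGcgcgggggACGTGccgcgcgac
Gapdh, chr6:125165774-125166023, minus strand: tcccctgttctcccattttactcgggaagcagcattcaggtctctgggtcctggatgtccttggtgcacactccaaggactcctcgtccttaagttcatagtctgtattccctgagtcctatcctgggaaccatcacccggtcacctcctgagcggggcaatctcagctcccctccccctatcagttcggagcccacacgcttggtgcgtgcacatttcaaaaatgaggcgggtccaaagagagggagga
Slc16a3 had 2 matches in the last 30 bases before its start (27 and 14 bases before it), Hk2 had matches 226 and 52 bases before its start, Pfkfb3 had 1 match 60 bases before the upstream start and an E-box (matches 53 and 52 bases before) at the downstream start, and Gapdh had no ACGTG. Windows were on hand for 37 of the 40 genes. Of these, 21 (56.8%) held ACGTG in at least 1 window, against 23.5% of the tested genes with a window and 18.5% of all genes with a window. By window it was 26 of 59 (44.1%) against 16.6% of all 32851 windows, those of genes not tested here among them. Among the 37, matches were found in 3 of 4 genes called in I/R against Sham and 18 of 33 (54.5%) not called. Ldha held 5 matches and Pgk1 2, and neither was called. A match says only that the letters are present.

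Next, treated and untreated injured hearts were compared. None of the 40 genes was called by edgeR in I/R + ML264 against I/R, where 8 of 15952 genes (0.0502%) were, 2 higher (0.0125%) and 6 lower (0.0376%). At an unadjusted p under 0.05 there were 2 of the 40 (5.0%, background 10.4%), Gapdh and Pygm, and DESeq2 called 1 of the 40 (2.5%, background 0.894%), Gapdh, where limma voom called 0 (background 0.0502%). The median log2 fold change of the 40 was 0.069 (all genes tested 0.00), and 30 of 40 lay within 0.2 of 0, against 58.1% of all genes tested. CPM values did not overlap for 3 of the 40 (7.5%, background 5.62%), Gapdh and Pygm higher (2 of 40, 5.0%, background 2.54%) and Slc2a1 lower with ML264 (1 of 40, 2.5%, background 3.08%). These results share the I/R libraries with the comparison above. Genes called there were picked on those I/R levels, which by itself can give a move back toward Sham. Such a move cannot be told apart from an effect of ML264.

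Gapdh was at 407, 449, 429 and 442 CPM in I/R + ML264, above all 4 I/R libraries (305 to 368) and overlapping the range of Sham (388 to 436). The log2 fold change against I/R was 0.33 ± 0.07 (SE, adjusted p = 0.114), or adjusted p = 0.00454 by DESeq2. Pygm was at 196, 212, 206 and 196 CPM against 188, 171, 183 and 175 in I/R (0.18 ± 0.06, adjusted p = 0.309). It varied least within groups of the 40 genes, with a mean coefficient of variation of 3.2%, and its I/R + ML264 libraries lay above those of both other groups. Slc2a1 was at 4.11, 5.39, 4.67 and 5.47 CPM, below every I/R library (5.71 to 6.66) and within the range of Sham (-0.32 ± 0.19, adjusted p = 0.586).

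For the 4 genes that rose in I/R, I/R + ML264 lay between the other groups in mean, and its libraries were uneven for Pfkfb3 and Slc16a3. The 4 were picked for high levels in these I/R libraries, which by itself can give a mean below I/R. That choice and an effect of ML264 cannot be told apart here. Pfkfb3 was at 8.34, 20.8, 11.5 and 14.7 CPM in libraries 1 to 4, with library 1 inside the Sham range and library 2 inside the I/R range (against I/R -0.62 ± 0.28, adjusted p = 0.481). Slc16a3 was at 0.922, 3.39, 2.06 and 1.90 CPM, in the same way low in library 1 and high in library 2 (-0.53 ± 0.38, adjusted p = 0.659). Hk2 was at 127, 121, 135 and 133 CPM, all between the group means of Sham and I/R (-0.20 ± 0.10, adjusted p = 0.496). Ndrg1 was at 14.3, 14.4, 12.3 and 16.2 CPM, above every Sham library (-0.11 ± 0.11, adjusted p = 0.766). Neutrophil markers were uneven over the same libraries, but not all in the same order. In I/R + ML264 libraries 1 to 4, Cxcr2 was at 3.62, 9.23, 5.26 and 10.2 CPM and Csf3r at 1.03, 3.97, 1.09 and 7.32. S100a8 (0.0709, 0.613, 0 and 0.221), S100a9 (0, 0.872, 0 and 0.309) and Retnlg (0.0355, 1.42, 0 and 0.441) were low and highest in library 2. The part of neutrophils was not tested. Without library 2, the log2 fold changes against I/R were -0.89 for Pfkfb3 and -0.88 for Slc16a3, and without library 1 they were -0.44 and -0.28, none of them called.

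**Figure D4:**
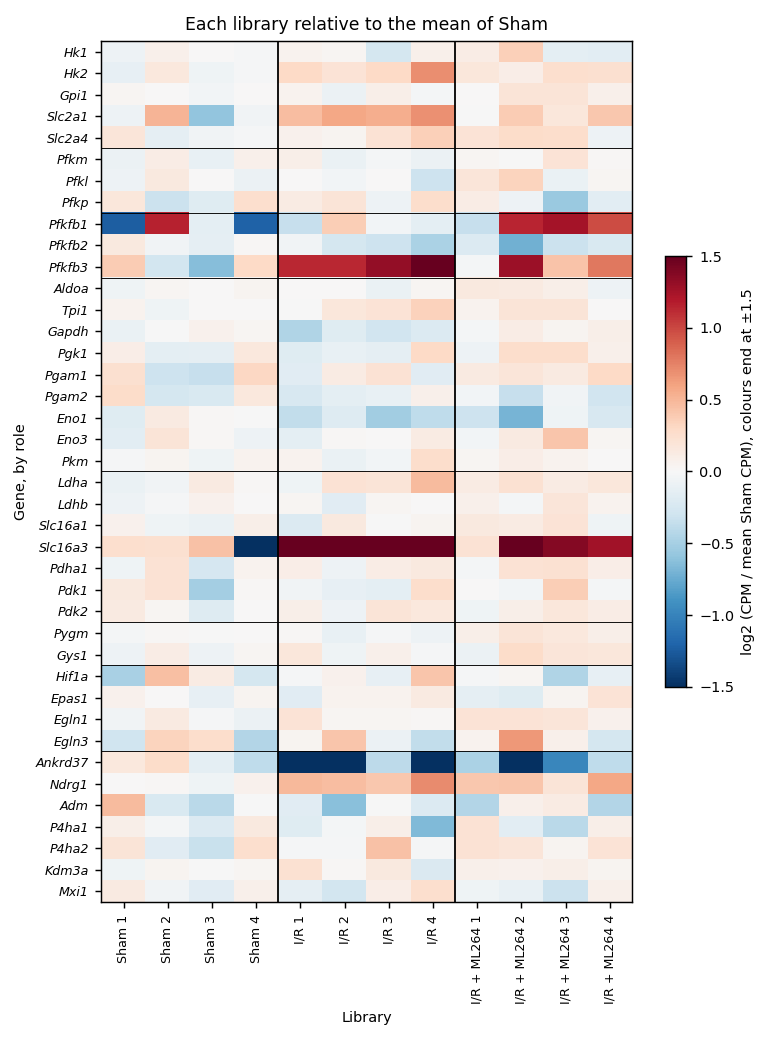
Log2 ratio of the CPM of each library to the mean CPM of Sham, for the 40 genes in order of role (vertical) and the 12 libraries by group (horizontal), with colours ending at ±1.5. Slc16a3, Pfkfb3 and Ndrg1 are raised across I/R, and I/R + ML264 library 1 is pale for Pfkfb3 and Slc16a3 where library 2 is dark.

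Treated injured hearts were last set against uninjured hearts. None of the 40 genes was called by edgeR in I/R + ML264 against Sham, where 46 of 15952 genes (0.288%) were, 41 higher (0.257%) and 5 lower (0.0313%). This comparison shares libraries with both others. At an unadjusted p under 0.05 there were 7 of the 40 (17.5%, background 13.0%), and DESeq2 called 2 of the 40, Ndrg1 (adjusted p = 0.0390) and Slc16a3 (0.0461), or 5.0% against a background of 2.08%, where limma voom called 0 (background 0.257%). The median log2 fold change was 0.11 (all genes tested 0.002). CPM values did not overlap for 3 of the 40 (7.5%, background 7.36%), 2 higher (5.0%, background 3.99%) and 1 lower (2.5%, background 3.37%). Ndrg1 was higher than in Sham (0.40 ± 0.11, adjusted p = 0.129), as was Pygm (0.13 ± 0.06, adjusted p = 0.355). Pfkfb2 was lower (-0.35 ± 0.11, adjusted p = 0.180), at 132, 92.1, 122 and 130 CPM against 168, 146, 139 and 154 in Sham, with library 2 the lowest. Slc16a3 was 2.61-fold above Sham without a call by edgeR (log2 fold change 1.39 ± 0.41, adjusted p = 0.165), and Gapdh was at 0.05 ± 0.07.

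Other genes of glucose and glycogen use were read from a list of 41, of which 36 were tested. In I/R against Sham 2 of them rose and 2 fell, with a median log2 fold change of -0.01, and none was called in the comparisons with I/R + ML264. Pdk4, the kinase that switches off pyruvate dehydrogenase during fatty acid use, was at 444, 321, 316 and 536 CPM in Sham and 798, 637, 617 and 823 in I/R (0.83 ± 0.22, adjusted p = 0.0444). Its groups did not overlap, but the call was lost without Sham library 1, 2 or 3, without any I/R library and without I/R + ML264 library 3 or 4 (0.73 to 0.90, adjusted p = 0.0577 to 0.116). Phka1, the muscle regulatory subunit of phosphorylase kinase, rose by 0.51 ± 0.13 (adjusted p = 0.0279) with I/R library 2 (31.3 CPM) inside the Sham range (27.5 to 33.6). Its call was lost without Sham library 2, 3 or 4 or I/R library 1, 3 or 4 (0.40 to 0.52, adjusted p = 0.0568 to 0.0873), and by limma voom. Mpc2, a subunit of the mitochondrial pyruvate carrier, fell from 35.8 ± 3.66 to 28.2 ± 1.27 CPM (SD, n = 4, -0.35 ± 0.09, SE, adjusted p = 0.0314), and was at 34.5 ± 3.37 CPM with ML264 (0.29 ± 0.09 against I/R, adjusted p = 0.278). Gapdhs, known as the sperm form of the Gapdh enzyme, was low and fell from 2.41 ± 0.622 to 1.15 ± 0.379 CPM (-1.07 ± 0.29, adjusted p = 0.0332). The Mpc2 call was lost without Sham library 1 or 4 or I/R library 2, 3 or 4 (-0.36 to -0.30, adjusted p = 0.0612 to 0.0963), and the Gapdhs call without Sham library 2, 3 or 4 or I/R library 2 or 4 (-1.04 to -0.88, adjusted p = 0.0797 to 0.0957). None of the 4 calls held with the Y-linked covariate. With the Arntl covariate Pdk4 (0.75, adjusted p = 0.121) and Gapdhs (-0.87, adjusted p = 0.141) were not called, and Mpc2 and Phka1 were (adjusted p = 0.0428 and 0.0332).

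Of 32 other HIF regulators and targets, 30 were tested and 1 rose in I/R against Sham (background 4.66%), Stc1. It encodes a secreted glycoprotein hormone raised by hypoxia in several cell types. No gene of this list was called lower there (background 3.21%). Stc1 was at 5.47, 1.41, 1.77 and 4.40 CPM in Sham and 9.26, 12, 12 and 13.8 in I/R, with no overlap (1.86 ± 0.46, adjusted p = 0.0361). The call was lost without Sham library 2, 3 or 4 and without any I/R library (1.60 to 2.05, adjusted p = 0.0553 to 0.0959). Like Pfkfb3, it was uneven in I/R + ML264, at 5.21, 12.9, 5.69 and 13.1 CPM. Tfrc, the transferrin receptor, was the only list member called with ML264 (1 of 30 lower against Sham, background 0.0313%). It was lower in I/R + ML264 than in Sham, 24.3 ± 2.35 against 58.5 ± 10.2 CPM (SD, n = 4, -1.26 ± 0.21, SE, adjusted p = 0.0307). In I/R against Sham it was at -0.68 ± 0.20 without a call (adjusted p = 0.0654). The Tfrc call was lost without Sham library 2, 3 or 4, I/R library 4 or I/R + ML264 library 2 or 4 (-1.31 to -1.14, adjusted p = 0.0565 to 0.111). Neither call held with the Y-linked or the Arntl covariate. The median log2 fold change of the 30 was 0.06 in I/R against Sham and in I/R + ML264 against Sham, and 0.08 in I/R + ML264 against I/R.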

How the data were processed

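Frozen mouse heart tissue was profiled as total RNA in 12 libraries. Per the labels' protocols, TRIzol extraction was followed by Nextera XT libraries, a kit that does not mark strand, so a gene and an antisense partner cannot be told apart. The authors deposited raw estimated counts for each transcript and library. FastQC and kallisto were used with GRCm38 (mm10), per the submitters' processing notes, versions not stated there. Because kallisto splits reads between transcripts with common sequence, the share of 31-base words found in other genes was computed, and genes over 25% are called uncertain.

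The estimated counts of all transcripts with 1 gene symbol were added up, then rounded. Aldoa joins 2 Ensembl genes. Genes were kept with filterByExpr (minimum count 10) and fitted with edgeR 4.0.16 (R 4.3.3) on the 12 libraries together (TMM factors, robust quasi-likelihood F-test, common biological coefficient of variation 0.205). Library totals of 22.26 to 29.93 M set the precision. Replicate pairs had a chi-square per gene of 7.76 to 75.82 and none was identical. Gene lengths and positions are those of GENCODE M21 (GRCm38), with 94.7% of transcripts matched by accession and version. The scripts were tested on simulated data. Members, lists and tests were chosen with earlier results of these data known. Genes described in full are those called in any comparison or with groups that do not overlap. The most abundant gene of each role and the called genes of the lists are also named, and genes named beyond these were chosen after their values were seen. Alternatives were RLE and upper-quartile factors, DESeq2 1.42.0, limma 3.58.1 voom with library weights, no filter, a replicate block, 2 groups only, no mitochondrial genes, Y-linked or Arntl covariates and leaving out each library. All 40 genes passed the filter, so the test planned for genes that do not was not needed.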

Additional observations from a re-analysis of the deposited data

Results flagged for a closer look

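In 8 of the 120 sets of 4 libraries (40 genes in 3 groups), 1 library lay far from the other 3, by more than Dixon's critical value for 4 samples. Chance gives about 1 in 20 such sets. Among glycolytic genes, Hk1 was at 32.2 CPM in I/R library 3 (the others 39.6 to 40.7), Pgk1 at 47.6 CPM in I/R library 4 (34.2 to 35.9) and Pfkm at 221 CPM in I/R + ML264 library 3 (190 to 195). For pyruvate and lactate genes, Ldhb was at 93.7 CPM in I/R library 2 (105 to 107), Pdk1 at 140 CPM in I/R + ML264 library 3 (105 to 108) and Slc16a3 at 0.211 CPM in Sham library 4 (0.942 to 1.08). Of the hypoxia genes, Egln1 was at 179 CPM in I/R library 1 (157 to 158) and P4ha2 at 26.9 CPM in I/R library 3 (19.5 to 19.6). Slc16a3 is the only called gene among the 8.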

How the results depend on the processing

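RLE or upper-quartile factors, no filter on low counts, only the 2 groups compared, mitochondrial genes left out, limma voom and DESeq2 each kept the 5 calls of I/R against Sham, as did summing genes with shared sequence. Calls for the 40 genes were 1 with Y-linked transcripts as a covariate, 3 with Arntl as a covariate and 2 without the 4 libraries low in Y-linked transcripts (added after the data were seen), and 3 to 5 when leaving out 1 library (3 without Sham library 3 or 4 or I/R library 4). Over all genes the same settings gave 456, 637 and 553 in place of 1256, and 659 to 1486 when leaving out 1 library (659 without Sham library 3, 694 without I/R library 4, 702 and 738 without Sham libraries 4 and 2). The cause was not tested.

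In I/R + ML264 against I/R, the 40 genes had 1 call by DESeq2 and 0 to 0 when leaving out 1 library. All genes called were 22 with no filter, 144 by DESeq2 and 2 without the libraries low in Y-linked transcripts, in place of 8, and 0 to 85 when leaving out 1 library (0 and 85 without I/R + ML264 libraries 1 and 2, 2 without I/R library 1 or 4, 3 without I/R library 2 or Sham library 2 or 4, 5 without I/R library 3). In I/R + ML264 against Sham, DESeq2 called 2 of the 40. All genes called were 78 with no filter, 27 with the 2 groups only, 12 with either covariate, 355 by DESeq2 and 27 without the libraries low in Y-linked transcripts, in place of 46, and 9 to 101 when leaving out 1 library (9 without Sham library 3 or 4, 11 without I/R + ML264 library 4, 12 without Sham library 2, 15 without I/R + ML264 library 2, and 77, 96 and 101 without Sham library 1 and I/R + ML264 libraries 3 and 1).

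The replicate numbers of the titles did not pair the libraries (correlation of deviations -0.11 to 0.097 over 12 pairs). With the replicate block, the 5 calls of I/R against Sham were kept, and all genes called were 1 in I/R + ML264 against I/R and 19 in I/R + ML264 against Sham. Of the list genes, Stc1, Gapdhs, Mpc2 and Phka1 lost their calls under the block (adjusted p = 0.0608, 0.0556, 0.0517 and 0.0529, edgeR), and Stc1, Pdk4 and Tfrc lost theirs with no filter. No direction reversed. Depth limits Slc16a3, Ankrd37 and Adm, each under 4 CPM in every library.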

Other observations

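Sham libraries fell apart along these genes. For 23 of the 40 (57.5%, all genes tested 41.4%), libraries 2 and 3 both lay above or both lay below libraries 1 and 4, 8 above and 15 below. Pfkfb1 was at 21.9 and 8.86 CPM in Sham libraries 2 and 3 against 4.16 and 4.23 in libraries 1 and 4. Hif1a was at 90.1 and 71.8 against 47.3 and 55.0, and Egln3 at 39.5 and 37.6 against 25.6 and 23.1. In the other direction, Pgam1 was at 13.5 and 13.1 CPM against 19.7 and 20.7, Pgam2 at 60.9 and 62.6 against 88.6 and 81.8, and Pfkfb3 at 7.03 and 5.49 against 11.1 and 10.5. Sham libraries 2 and 3 are also the 2 with the high Arntl level. This division was seen in the data and carries no test.

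Within groups the 40 genes varied with a median coefficient of variation of 10.6%, against 17.3% for all genes tested and 9.9% for those with a mean of 10 CPM or more. Pygm (3.2%), Aldoa and Gpi1 (4.6% each) varied least, and Ankrd37 (54.5%), Pfkfb1 (48.9%) and Slc16a3 (37.8%) most. Gapdh, often used as a reference gene, had a coefficient of variation of 5.8% within groups and was called lower in I/R than in Sham. The ratio of Eno1 to Eno3 per library was 0.122 to 0.132 in Sham. It was 0.0880 to 0.109 in I/R, and I/R + ML264 had 0.0716 to 0.106. The ratio of Slc16a3 to Slc16a1 was 0.00276 to 0.0159 in Sham, with 0.0374 to 0.0469 for I/R libraries and 0.0115 to 0.0432 for those with ML264.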
